A study of Mus musculus with 10 samples.

Results

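Small nuclear RNAs (snRNAs) are short, abundant RNAs of the nucleus that work inside protein complexes. U1, U2, U4, U5 and U6 form the major spliceosome, U1 reading the 5′ splice site and U2 the branch point, whereas U11, U12, U4atac and U6atac, together with U5, form the minor spliceosome that removes a rare class of introns. U7 is of another kind: it is an snRNA but no part of a spliceosome, and it guides the 3′ end processing of replication-dependent histone pre-mRNAs.

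The rows described here were chosen by their counts. They are the rows of the small RNA table that carry the type snRNA and hold 100 or more counts summed over the 10 libraries, which gave 135 rows of 793 snRNA rows and of 6968 rows in all. They held 82602 of 92809 snRNA counts (89.0%). Just inside the limit lay the U6 rows Gm26245, Gm23610 and Gm24267 with 102, 101 and 100 counts, and just outside it the U6 rows Gm24565, Gm24448 and Gm26465 with 98, 98 and 97 counts. The sum over all libraries favours rows that are high in some of them. The 2 Eµ-deficient libraries held 48.7% of the counts of the 135 rows, and only 30 rows reached 100 counts in the other 8 libraries alone: 12 of 13 U2, 7 of 8 U7, 5 of 7 U5, 3 of 5 U11, 2 of 4 U1 and Gm22710, but none of the 96 U6 rows, which had 27 to 87 counts there. Of the 135 rows, 29 would miss the limit without the 4 NS libraries of wt and 3′RR-deficient cells and 26 without their 4 LPS libraries. Where a row owes its place to the libraries in which it is high, a difference in that direction is partly set by the rule and is given as a description only. The name spliceosomal fits most but not all of these rows, since 8 of them are U7.

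Cells were CD43- splenic B-cells, that is spleen cells depleted of CD43-bearing cells, from wt, 3′RR-deficient and Eµ-deficient mice. Eµ and the 3′RR are the enhancers at either end of the immunoglobulin heavy chain constant region, and per the study's methods all mice were of a 129 background and 8 to 12 weeks old, and the Eµ-deficient line lacks Eµ with its flanking MAR (matrix attachment) regions. Cells were cultured for 2 days in growth medium alone (NS, non-stimulated) or with lipopolysaccharide (LPS, a B-cell mitogen). This follows the sample labels. The study's methods, written for its long RNA libraries, speak of cells before and after stimulation, so whether NS cells were cultured or were taken fresh bears on every NS level and LPS comparison here and was not settled. The LPS dose is 5 µg/ml in the sample labels, whereas another label text gives it in mg. There were 2 libraries in each of the groups wt NS, wt LPS, 3′RR-deficient NS and 3′RR-deficient LPS, and 1 library each for Eµ-deficient NS and Eµ-deficient LPS. A library holds RNA of 2 pooled mice, so a replicate is a pool, and p-values measure the spread between pools. The methods for the long RNA libraries describe RNA pooled from mice sampled before and after stimulation. NS and LPS libraries of a genotype could thus come from the same mice, and the tests used no such pairing. A figure legend of the study gives a number of mice per genotype that differs from its methods.

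The libraries held 3482540 to 18144016 counts, of which type snRNA took 0.0457% to 0.177% (median 0.0622%; the 95% Wilson interval of the highest, Eµ-deficient LPS, was 0.175% to 0.179%, counting error only). The second NS libraries of wt and of 3′RR-deficient cells stood apart in measures other than snRNA too. They had the lowest totals (3482540 and 3756662 counts) and 0.347% and 0.266% of their counts in rRNA rows, against 0.00743% to 0.0423% in the other 8 libraries. Their snRNA shares, 0.174% and 0.135%, were above those of the first NS libraries, 0.0620% and 0.0556%, and what sets these libraries apart was not tested. The B-cell microRNA miR-150-5p was present in all 10 libraries at 3293 to 55786 CPM (counts brought to libraries of equal size), while the myeloid miR-223-3p reached 5764 CPM in the Eµ-deficient NS library against 35.5 to 1759 CPM in the 8 libraries of the other genotypes. Other lymphoid microRNAs differed between the NS libraries. In the first and second ones, miR-142a-5p was at 162340 and 4430 CPM in wt and at 99002 and 3915 CPM in 3′RR-deficient cells. For miR-142a-3p these values were 8768 and 159 CPM, and 3892 and 148 CPM. Neither miR-181a-5p (20550 and 26423, 34459 and 29249 CPM) nor miR-155-5p (5692 and 4440, 8133 and 3931 CPM) had a drop of that size. In bulk RNA fewer cells of a type and less RNA per cell cannot be told apart.

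By alignment to the named Rnu genes of the annotation, the 135 rows fell into 96 U6, 13 U2, 8 U7, 7 U5, 5 U11 and 4 U1 rows, and 2 rows had no named relative. U12 had 4 rows with 89 counts in all, none of which reached 100. One row without a relative, Gm22710, held 23861 counts, 28.9% of the counts of the 135 rows. The 8 U7 rows together held 21.8% of them and the 96 U6 rows 17.3%. Gm22710 has the sequence and the place of U4atac, by general knowledge of that RNA and not by the name in the annotation. The other row without a relative has no entry in the annotation used here.

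The row with the most counts is shown first for U4atac, U11, U7, U1 and U2, to show the annotated sequence to which its counts were assigned. Sequences are of the DNA sense strand, in build mm10 (GENCODE vM21 transcripts). Capitals mark the letters of an Sm-type site, the stretch on which the Sm protein ring of snRNAs assembles, searched on the sense strand only. The letters searched were ATTTTTTG as in U11, then ATTTTTG as in U2, then ATTTGTG as in U1 and, for the ring of its own that U7 has, TTTGTCTAG.
Gm22710 (U4atac by sequence), chr1:118459141-118459265, minus strand: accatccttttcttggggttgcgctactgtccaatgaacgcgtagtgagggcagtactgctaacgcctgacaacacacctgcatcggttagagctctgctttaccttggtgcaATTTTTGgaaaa
Rnu11 (U11), chr4:132270080-132270213, minus strand: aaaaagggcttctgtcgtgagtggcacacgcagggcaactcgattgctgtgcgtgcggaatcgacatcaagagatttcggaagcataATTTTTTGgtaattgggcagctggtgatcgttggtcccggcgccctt
Rnu7 (U7), chr6:124741225-124741286, minus strand: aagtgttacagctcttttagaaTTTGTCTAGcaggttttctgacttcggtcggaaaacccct
Gm23686 (U1), chr3:18177462-18177625, minus strand: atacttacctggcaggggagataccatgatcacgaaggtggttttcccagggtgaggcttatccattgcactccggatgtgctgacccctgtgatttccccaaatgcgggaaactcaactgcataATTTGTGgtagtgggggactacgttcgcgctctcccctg
Gm26020 (U2-like), chrX:105819883-105820065, plus strand: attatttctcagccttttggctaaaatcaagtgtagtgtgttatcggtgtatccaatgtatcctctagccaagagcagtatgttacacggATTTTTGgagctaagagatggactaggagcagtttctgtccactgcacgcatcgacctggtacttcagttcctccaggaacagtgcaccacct

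One of these strings occurred in 6 of 7 U5, 4 of 5 U11, 4 of 7 U7, 6 of 12 U2, 2 of 4 U1 and 3 of 96 U6 rows with a sequence. In all it occurred in 19.7% of 132 such rows, in 20% of 645 snRNA rows under the limit and in 1.24% of 645 snoRNA rows. U6 binds another ring, of Lsm proteins, at its 3′ end. The annotation places Gm22710 in an exon of the long non-coding gene 2900060B14Rik on the same strand and opposite an intron of Clasp1, Rnu7 in an exon of Grcc10 on the same strand, and Gm24871 in an exon of B930036N10Rik on the same strand, so reads of those transcripts could not be told from the snRNA. Gm23686 lies in an intron of Cyp7b1 on the same strand, Gm26020 opposite an intron of Atrx, and Gm22822 in no protein-coding or long non-coding gene.

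Rows of a family were not independent measurements. Of the 96 U6 rows, 43 have 1 and the same sequence of 107 bases, and the counts of those 43 rows lay close together in every library, for example from 4 to 12 in the first wt NS library and from 75 to 115 in the Eµ-deficient LPS library. Their variance over rows was 0.281 to 0.819 times the mean in 9 libraries and 2.72 times in Eµ-deficient LPS, where random splitting of reads would give 1. The U7 rows Gm22815, Gm27934 and Gm25884 had equal counts in 6 of 10 libraries and differed by at most 1 count in the others. How reads that match several rows were assigned is not given in the sources used here, and a sum over a family can hold 1 read several times.

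Some U2 rows hold only a part of U2. Gm25813 is a full-length U2 copy with 98.95% identity to the named gene Rnu2-10. Gm24402 and Gm22946 share only the start of U2 and then run into other sequence. Capitals mark the longest stretch shared with Gm25813, and in Gm25813 the stretch shared with Gm24402.
Gm25813, chr8:52336915-52337105, minus strand: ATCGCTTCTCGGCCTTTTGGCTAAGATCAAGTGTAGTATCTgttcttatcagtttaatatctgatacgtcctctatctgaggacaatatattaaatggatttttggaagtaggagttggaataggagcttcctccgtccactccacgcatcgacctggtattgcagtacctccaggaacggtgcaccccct
Gm24402, chr1:151260824-151260914, minus strand: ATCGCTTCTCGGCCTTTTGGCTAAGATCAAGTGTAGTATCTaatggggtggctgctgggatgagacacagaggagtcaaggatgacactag
Gm22946, chr6:123195632-123195713, minus strand: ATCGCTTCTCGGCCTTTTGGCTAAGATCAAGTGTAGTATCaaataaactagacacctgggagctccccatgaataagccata

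With 41 and 40 bases in common at the 5′ end, Gm24402 and Gm22946 held 622 and 553 counts, 80.3% and 71.4% of the 775 counts of Gm25813. In the second 3′RR-deficient LPS library the counts were 293 for Gm25813, 271 for Gm24402 and 279 for Gm22946. Other U2 rows that share as much of the start or more held fewer, Gm23444 (bases 1 to 77) 24.3%, Gm24840 (1 to 57) 21.3% and Gm23744 (1 to 78) 21.2% of the counts of Gm25813, so these counts do not settle where on U2 the fragments lay. Gm26020, by contrast, is 76.9% identical to Rnu2-10, shares at most 17 bases in a row with Gm25813 and held 7685 counts.

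Levels are given as CPM after TMM scaling (a library factor computed over all rows of the table). Per 100 bases, which allows rows of different length to be compared, Gm22710 had the highest mean level over the 10 libraries, 208 CPM per 100 bases. Then came Rnu7 with 80.2, Gm23763 (U7) with 68.3, Gm26020 with 67.4, Gm25150 (U7) with 44.7, Gm24871 with 39.9 and Rnu11 with 27.1 CPM per 100 bases. This order depends on the libraries: over the 8 libraries without the Eµ-deficient ones Gm22710 was at 214, Gm26020 at 79.0, Rnu7 at 30.8, Rnu11 at 23.3, Gm24871 at 19.4, Gm23763 at 18.1 and Gm25150 at 11.7 CPM per 100 bases, and without the second NS libraries as well Gm26020 was at 16.0. Gm22710 led in each case. Over all 10 libraries the U1 rows lay at 0.826 to 2.40 and the U6 rows at 0.694 to 1.68 CPM per 100 bases. These are levels of fragments in a size-selected library, and no level of the whole RNA follows from them.

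**Figure D1:**
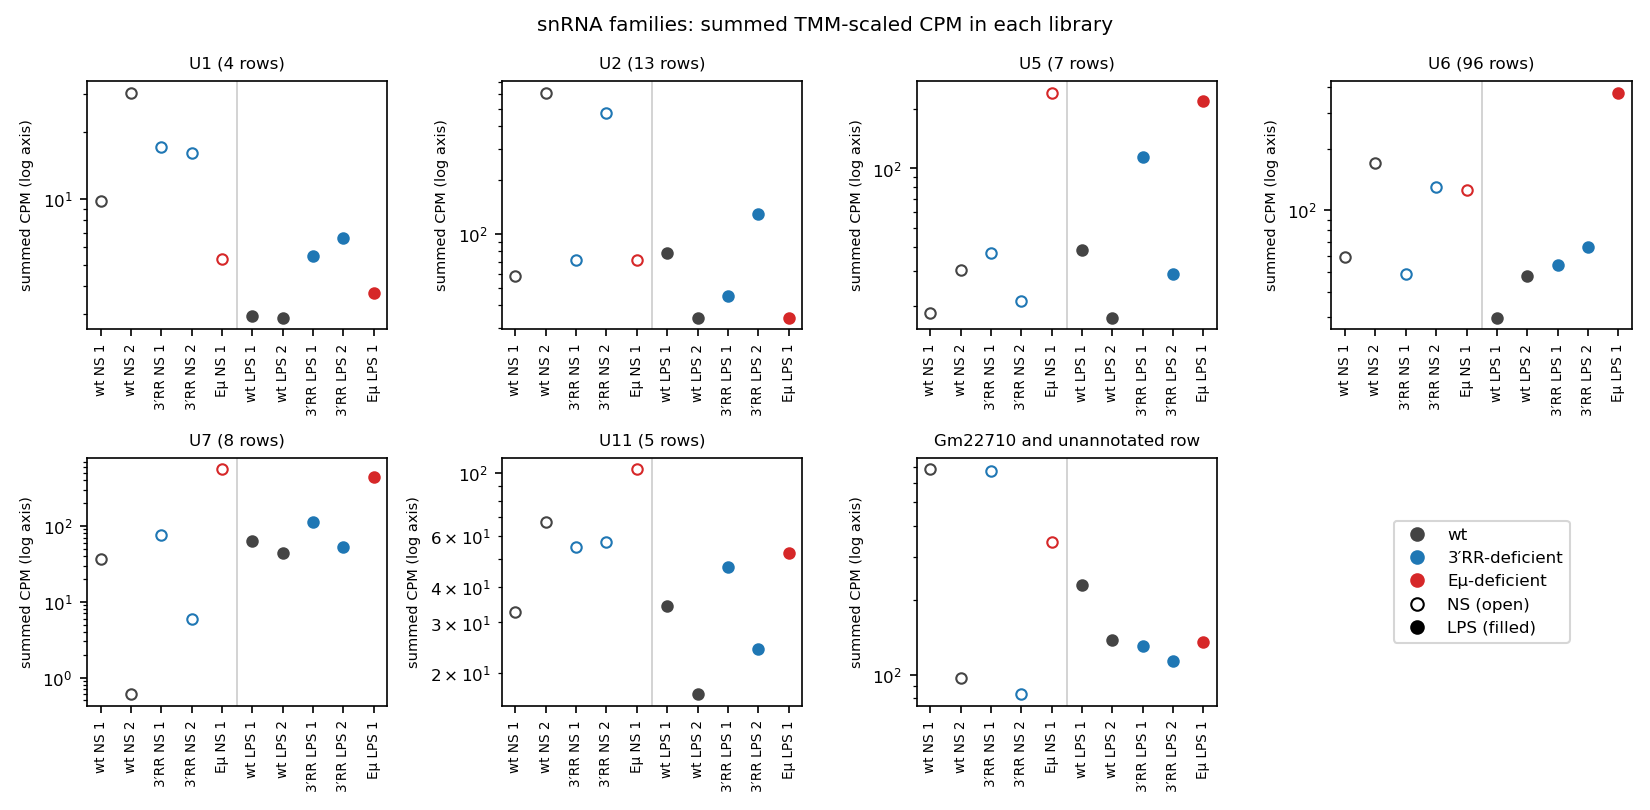
Summed TMM-scaled CPM (log axes, each panel with its own range) of the rows of each snRNA family in each of the 10 libraries. Open points are NS and filled points LPS libraries, in black for wt, blue for 3′RR-deficient and red for Eµ-deficient cells. U1 was lower in all 4 LPS libraries of wt and 3′RR-deficient cells than in their 4 NS libraries, and U5 and U7 were highest in the 2 Eµ-deficient libraries.

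The single most abundant row split the NS libraries. Gm22710 stood at 681 and 96.8 CPM in the first and second wt NS libraries and at 667 and 83.1 CPM in the first and second 3′RR-deficient NS libraries. With LPS it stood at 231 and 138 CPM in wt cells, at 127 and 113 CPM without the 3′RR, and it was at 335 CPM in Eµ-deficient NS and 129 CPM in Eµ-deficient LPS. The first NS libraries were thus the highest of all, the second NS libraries the lowest, and the LPS libraries lay between.

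The U2-like row Gm26020 had the opposite pattern. It was at 24.4 and 560 CPM in wt NS, 46.5 and 421 CPM in 3′RR-deficient NS, 40.7 and 11 CPM in wt LPS, 15.9 and 36.8 CPM in 3′RR-deficient LPS, and 55.4 and 21.1 CPM in Eµ-deficient NS and LPS. Both second NS libraries were far above the other 8, among which no group stood apart. Gm25202, a full-length U2 copy, also was highest there, at 11.4 and 13.3 CPM against 0.154 to 1.70 CPM elsewhere.

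U7 was lowest in the same libraries. Its 8 rows summed to 0.602 CPM in the second wt NS library and 5.99 CPM in the second 3′RR-deficient NS library, against 36.3 and 75.6 CPM in the first ones. Rnu7 had 1 count in the second wt NS library and 32 counts in the second 3′RR-deficient NS library (0.201 and 5.99 CPM), against 14.1 and 30.6 CPM in the first NS libraries. Gm23763 had 1 and 0 counts in those 2 libraries, where a count of 0 allows up to 3 counts. None of the 32 Rnu7 counts in the second 3′RR-deficient NS library had a counterpart in Gm23763, although both share the 37 bases shown in capitals.
Gm23763 (U7), chr1:136990211-136990270, minus strand: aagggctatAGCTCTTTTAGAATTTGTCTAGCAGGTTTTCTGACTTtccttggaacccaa

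The first question the design asks is how snRNA fragments differ between LPS-stimulated and NS cells. In the 8 wt and 3′RR-deficient libraries together, 130 of the 135 rows passed the filter on low counts (the 5 that did not are U6). One of them, Gm23686 (U1, the RNA that pairs with the 5′ splice site), fell and none rose (edgeR quasi-likelihood test, Benjamini-Hochberg adjusted p under 0.05 over 3987 rows). Over all rows tested, 2.13% fell and 2.03% rose, so the share among snRNA rows was no higher than among all rows. DESeq2 called 4 of the 130 lower and 1 higher, against 8.1% and 6.14% of all rows. At an unadjusted p under 0.05 there were 10 of the 130 rows, against 23.4% of all rows.

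Gm23686 was at 4.11 and 9.22 CPM in wt NS and 5.24 and 7.68 CPM in 3′RR-deficient NS. With LPS it was at 1.12 and 1.47 CPM in wt cells, 3.15 and 2.57 CPM without the 3′RR. All 4 LPS libraries lay below all 4 NS libraries, with a log2 fold change of -1.85 ± 0.45 (SE; edgeR, adjusted p = 0.0493). The call was lost when library totals or microRNAs set the scale (edgeR, adjusted p = 0.144 and 0.151, log2 fold changes -1.66 and -1.31) and without any one of 7 of the 8 libraries (edgeR, adjusted p = 0.0609 to 0.171), the first wt NS library being the exception.

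The other U1 rows had the same sign and did not pass. Of the 4 U1 rows, only Gm23686 would reach 100 counts without the 4 NS libraries, in which these rows are high. Gm22042 was at 4.0 and 12.2 CPM in wt NS, 6.16 and 2.06 in 3′RR-deficient NS, then with LPS at 1.12 and 1.26 in wt cells, 1.82 and 2.05 without the 3′RR, with a log2 fold change of -2.02 ± 0.58 (SE; edgeR, adjusted p = 0.0760). Gm24136, which had 0 counts in both wt LPS libraries, had adjusted p = 0.0622 (edgeR), and Gm25682 was at 0 and 7.22 CPM in wt NS, 1.23 and 2.62 in 3′RR-deficient NS, and 0.140 to 0.697 CPM in the 4 LPS libraries. Summed over the 4 U1 rows, the mean was 18.3 ± 8.62 CPM in NS and 4.47 ± 1.87 CPM in LPS libraries (SD, n = 4 each), without overlap. The rule had a part in this direction, and the 4 rows held 778 of the 2209 counts of all U1 rows. For single rows, all 4 LPS libraries lay below all 4 NS libraries in 3 of 4 U1, 3 of 91 U6 and no other of the 130 rows, 6 in all, against 6.17% of all rows tested. This holds with TMM scaling: with library totals as the scale 1 row, a U1 row, did so (3.14% of all rows), and with microRNAs as the scale none did (3.71% of all rows). U1 rows share stretches of 30 to 52 bases with Gm23686 and are not independent.

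U6, the catalytic snRNA, was lower with LPS in direction only. All 91 tested U6 rows, many of them 1 sequence, had a negative log2 fold change (median -1.14), and the smallest adjusted p was 0.246 (edgeR). Of the 96 U6 rows, 21 would miss the limit without the 4 NS libraries. The summed U6 level was 102 ± 58.5 CPM in NS and 49.6 ± 15.2 CPM in LPS libraries (SD, n = 4 each), and the groups overlapped, with the first NS libraries at 59.1 and 48.7 CPM within the LPS range of 29.8 to 66.3 CPM. The named row Rnu6 was at 0.821 and 2.01 CPM in wt NS, 0.616 and 1.87 in 3′RR-deficient NS, then with LPS at 0.558 and 0.631 in wt cells, 0.663 and 0.936 without the 3′RR.

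U5 and U7 had mostly the opposite sign, and their groups overlapped. U5, which holds the exons during both steps of splicing, had 6 of 7 rows with a positive log2 fold change (median 0.84), and U7 had 8 of 8 (median 1.49), and none passed. The summed U5 level ranged from 18.4 to 37.1 CPM in NS and from 17.3 to 114 CPM in LPS libraries, and without the first 3′RR-deficient LPS library the LPS mean dropped from 49.8 to 28.3 CPM, against 26.8 CPM in NS. The summed U7 level ranged from 0.602 to 75.6 CPM in NS and from 43.8 to 112 CPM in LPS libraries, the lowest NS values being those of the second NS libraries. Gm24249, a U7 copy opposite an intron of Grm5, had 0 counts in all 4 NS libraries and 10, 3, 54 and 11 counts in the wt and 3′RR-deficient LPS libraries. Of these 78 counts 54 came from the first 3′RR-deficient LPS library. With 129 counts in all and none in NS cells, it is a member only through LPS libraries, so its direction was set by the rule. It was the only one of 130 rows in which all 4 LPS libraries lay above all 4 NS libraries, against 10.4% of all rows tested. With library totals or microRNAs as the scale, 9 and 10 rows did so, 6 and 7 of them U7, against 13.9% and 14.5% of all rows tested.

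U11, which takes the place of U1 in the minor spliceosome, did not separate the groups. Rnu11 was at 25.3 and 48.9 CPM in wt NS, 45.0 and 45.9 in 3′RR-deficient NS, 29.0 and 10.5 in LPS-stimulated wt cells, 27.7 and 18 in LPS-stimulated cells without the 3′RR, and 82.8 and 30.8 in Eµ-deficient NS and LPS. Both genotypes had an LPS library above the first wt NS library. The U11 copies Gm22472 and Gm25785 ranged over the 10 libraries from 2.09 to 15.5 and from 1.19 to 5.30 CPM.

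**Figure D2:**
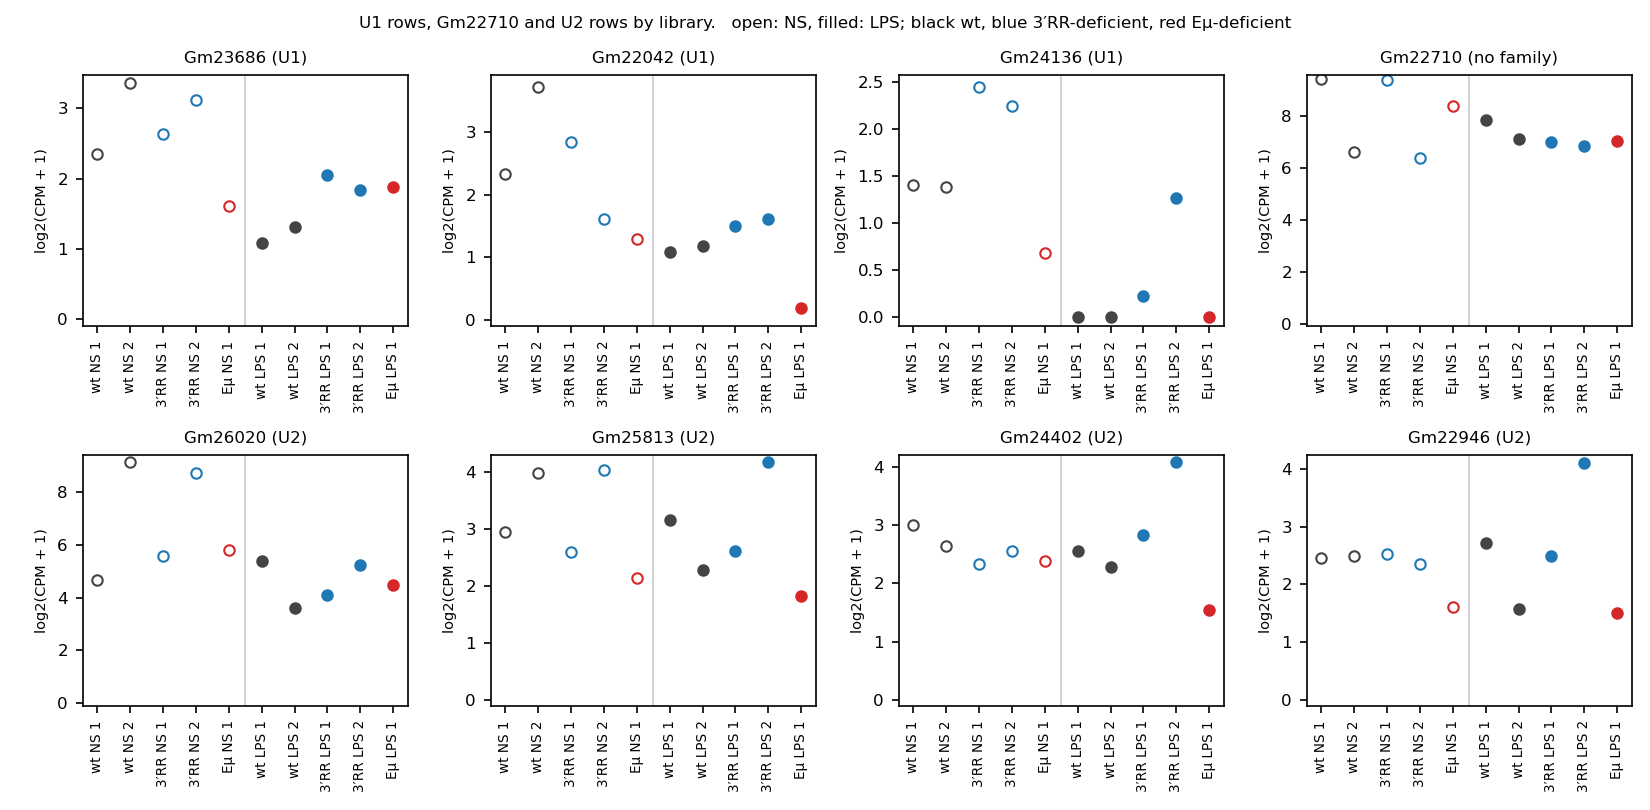
Log2(CPM + 1) of 3 U1 rows, Gm22710 and 4 U2 rows in each library, with open points for NS and filled points for LPS (black wt, blue 3′RR-deficient, red Eµ-deficient). Gm22710 was high in the first and Gm26020 in the second NS libraries, and the U2 rows Gm25813, Gm24402 and Gm22946 had their highest value in the second 3′RR-deficient LPS library.

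Over the 130 rows the median log2 fold change between LPS and NS was -1.11, against -0.05 over all 3987 rows tested, and 24 were positive. Other classes had negative medians as well, -1.04 for snoRNA, -0.79 for misc_RNA, -2.27 for rRNA and -0.54 for microRNA rows. The tRNA and piRNA rows had medians of 0.36 and 0.11, so a negative shift was not particular to snRNAs. The scale matters for such statements: with library totals or microRNAs as the scale the median of all rows moved to 0.35 and 0.60, that of the snRNA rows to -0.94 and -0.55, and the calls over all rows turned from 81 higher and 85 lower to 270 and 70, and to 424 and 78. Relative to all rows, the snRNA median lay between -1.06 and -1.29 under all 4 scalings. Most of these rows are U6, so the median is mainly the value of 1 RNA, and the rule itself used these counts. The markers of other cell types moved with LPS too: the summed erythroid microRNAs (3 of 3 measured) ranged from 1505 to 4279 CPM in NS and from 64.3 to 716 CPM in LPS libraries, the myeloid one from 279 to 1759 and from 35.5 to 95.8 CPM, and the 4 stromal and endothelial ones from 126 to 987 and from 36.3 to 75.8 CPM. Only miR-145a-5p of these was at 0, in both 3′RR-deficient LPS libraries, and the part of such cells in the result was not tested.

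Within a single genotype no row was called. In wt cells the smallest p-values belonged to the U1 rows Gm24136, Gm23686 and Gm22042 (edgeR, adjusted p = 0.227, 0.243 and 0.256, with 0% of 3987 rows called, and 4 snRNA rows at an unadjusted p under 0.05 against 11% of all rows). Gm24136 had 24 counts in the wt NS libraries and 0 in the wt LPS libraries, and with 103 counts in all it would not be a member without the NS libraries. In 3′RR-deficient cells Gm24249, Gm24136 and Gm22265 (U5) came first (edgeR, adjusted p = 0.408, 0.457 and 0.457, with 0% called, and 3 snRNA rows at an unadjusted p under 0.05 against 10.2% of all rows). DESeq2 called 1 row lower in wt and none in 3′RR-deficient cells, against 3.09% and 2.83% of all rows in either direction. The median log2 fold change of the 130 rows was -1.55 in wt and -0.65 in 3′RR-deficient cells, where it was 0.02 with microRNAs as the scale.

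The next question is whether lack of the 3′RR changes snRNA fragments. No row passed in NS cells, in LPS-stimulated cells or over both (edgeR), and DESeq2 called none, against 0.0502%, 0.0502% and 0.201% of all rows. In all 3 comparisons the background was low, 0% of 3987 rows in NS cells, 0% with LPS and 0.0251% over both conditions, and 0, 1 and 1 snRNA rows had an unadjusted p under 0.05, against 1.45%, 1.33% and 2.11% of all rows. Over both conditions the smallest p-values were those of Gm24136 (log2 fold change 2.34 ± 0.90), Gm23793 (U5, 1.70 ± 0.92) and Gm23287 (U5, 0.94 ± 0.52), each with adjusted p = 0.999 (SE; edgeR).

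Gm24136 had 1.64 and 1.60 CPM in wt NS, 4.47 and 3.74 CPM in 3′RR-deficient NS, 0 counts in both libraries of wt LPS, then 0.166 and 1.40 CPM in 3′RR-deficient LPS. In NS cells both 3′RR-deficient libraries lay above both wt libraries. With LPS, 24 of the 25 counts came from the second 3′RR-deficient library, and the 1 count of the first is within what a count of 0 allows. In NS cells Gm22850 (U2), Gm22042 and Gm24136 came first, with log2 fold changes of -1.44 ± 0.97, -1.0 ± 0.72 and 1.32 ± 0.95 (SE; edgeR, adjusted p = 1 each). With LPS, Gm24402 (U2) and Gm24871 (U5) followed Gm24136, with log2 fold changes of 1.26 ± 0.56 and 1.82 ± 0.90 (SE; edgeR, adjusted p = 1 each). Gm24402 was at 6.13 and 15.9 CPM in the 3′RR-deficient LPS libraries against 4.88 and 3.85 CPM in wt LPS, without overlap. Gm24871 was at 73.4 and 14.7 CPM against 17.0 and 7.78 CPM, and there the second 3′RR-deficient library lay within the wt range.

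The LPS responses of the 2 genotypes were compared directly. No row passed the interaction test (edgeR, 0% of 3987 rows called, 1 snRNA row at an unadjusted p under 0.05 against 0.978% of all rows, and none called by DESeq2, which called 0% of all rows). Gm24136, Gm24402 and Gm22850 had the smallest p-values, and the differences of Gm24402 and Gm22850 were 1.73 ± 0.79 and 2.13 ± 1.29 on the log2 scale (SE; edgeR, adjusted p = 1.00 each). At 2 libraries per group these intervals are wide, and a p that misses the threshold does not show that the responses were alike.

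**Figure D3:**
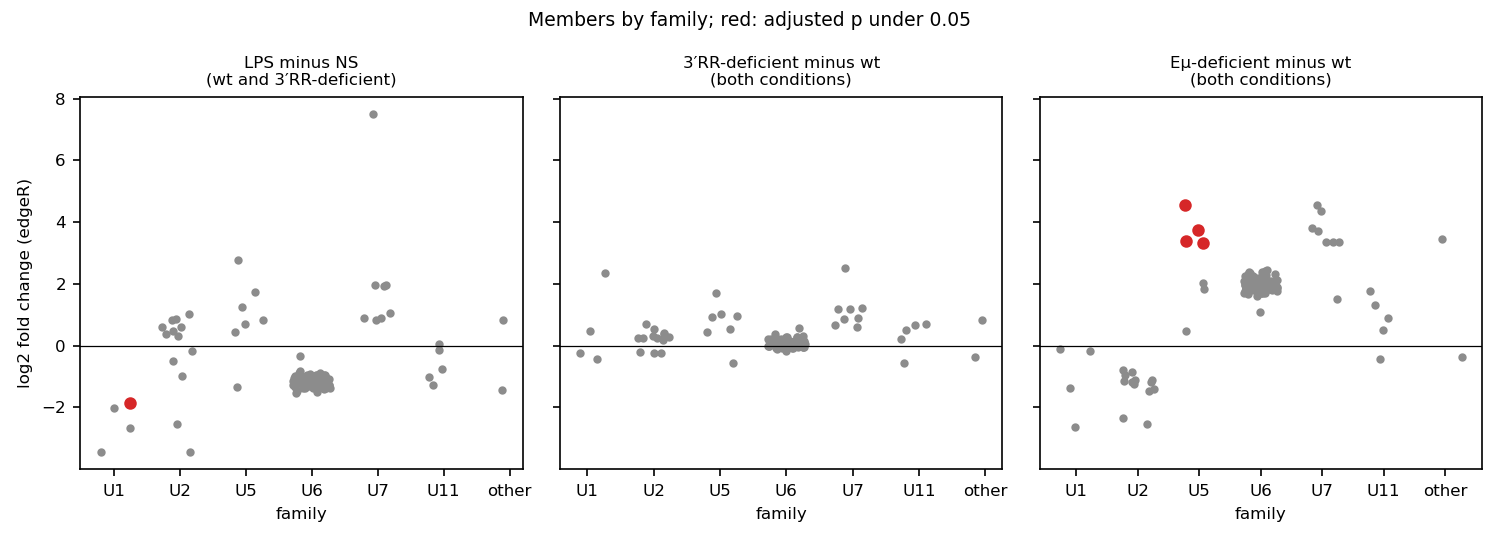
Log2 fold changes (edgeR) of the tested snRNA rows by family for LPS against NS in wt and 3′RR-deficient cells, 3′RR-deficient against wt, and Eµ-deficient against wt, with 1 point per row and sideways jitter only for legibility. Red points have adjusted p under 0.05: 1 U1 row in the first panel, none in the second and 4 U5 rows in the third, where the U7 rows lie as high.

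Lack of Eµ could be tested only over both conditions, with 1 library in each, which are assumed to vary like the other groups. All 135 rows were tested. Of these, 4 rose against wt, all of them U5, and none fell (edgeR, adjusted p under 0.05), against 3.32% of 4554 rows that rose and 0.0878% that fell. Since 105 rows reached the limit only with the Eµ-deficient libraries, counts over all 135 rows show nothing about snRNAs as a class. Among the 30 rows that reached it without them, a split made after seeing the data, 3 rose (Gm24871, Gm22265 and Gm22365), DESeq2 called 7 higher and 1 lower (4.79% and 0.527% of all rows), and 14 had an unadjusted p under 0.05 (14.2% of all rows), 7 of them U7 and 5 U5. The fourth row called, Gm23793, had 65 of its 436 counts outside the Eµ-deficient libraries, so that its place among the members rests on them. The wt libraries are shared with the comparisons above.

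Gm24871, the U5 row with the most counts, was at 176 CPM in Eµ-deficient NS and 107 CPM in Eµ-deficient LPS. It was at 12.6, 17.8, 17.0 and 7.78 CPM in the wt NS and wt LPS libraries and at 26.3, 10.1, 73.4 and 14.7 CPM in the 3′RR-deficient NS and LPS libraries. Both Eµ-deficient libraries lay above the other 8, and the log2 fold change against wt was 3.37 ± 0.70 (SE; edgeR, adjusted p = 0.0189). Gm22265 lies opposite an intron of Hhat and was at 40.6 and 46.6 CPM in Eµ-deficient NS and LPS. Elsewhere it was at 2.77, 4.41, 7.81 and 3.78 CPM in wt NS and LPS and at 2.77, 3.93, 19.6 and 6.09 CPM in 3′RR-deficient NS and LPS. The groups did not overlap, and the log2 fold change was 3.32 ± 0.57 (SE; edgeR, adjusted p = 0.00651).

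The other 2 were lower in level. Gm22365 was at 7.61 and 19.8 CPM in Eµ-deficient NS and LPS, against 0.513, 0.602, 2.37 and 0.841 CPM in wt NS and LPS and 1.54, 0.187, 6.13 and 1.35 CPM in 3′RR-deficient NS and LPS, a log2 fold change of 3.73 ± 0.72 (SE; edgeR, adjusted p = 0.0117). Gm23793 was at 3.99 and 15.1 CPM, against 0, 0.201, 1.25 and 0.561 CPM in wt and 0.616, 0.187, 4.14 and 0.995 CPM in 3′RR-deficient cells, a log2 fold change of 4.57 ± 0.79 (SE; edgeR, adjusted p = 0.00651) whose direction the rule had a part in. For Gm23793 the first 3′RR-deficient LPS library was above the Eµ-deficient NS library. That library was the highest of the 8 for all 4 rows.

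The U5 row Gm23143, which was not called, was at 7.86 and 22.2 CPM in Eµ-deficient NS and LPS against 0.616 to 6.55 CPM in the other 8 libraries, with a log2 fold change of 2.02 ± 0.63 (SE; edgeR, adjusted p = 0.141). Gm23287 had a log2 fold change of 1.82 ± 0.52 (SE; edgeR, adjusted p = 0.0951). The 5 U5 rows that reached the limit without the Eµ-deficient libraries had a positive sign, and so had Gm23793 and Gm24043, whose sign the rule had a part in, with 65 and 70 counts in the other 8 libraries. The summed U5 level was 243 and 220 CPM in the Eµ-deficient libraries against 17.3 to 114 CPM in the other 8.

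U7 was at least as far apart, and whether its rows passed depended on the setting. None passed in the edgeR test with TMM scaling, whereas of the 7 U7 rows that reached the limit without the Eµ-deficient libraries 2 were called higher with library totals as the scale, 4 with microRNAs as the scale, 2 at a minimum of 10 CPM in 2 libraries, 7 with no filter on low counts and 4 by DESeq2. Over all rows, 94 of 4554, 145 of 4554, 149 of 1934, 254 of 6855 and 218 of 4554 were called higher in these settings. The 7 rows are not independent, since Gm22815, Gm27934 and Gm25884 differed by at most 1 count. Rnu7 was at 192 and 153 CPM in Eµ-deficient NS and LPS, against 0.201 to 30.6 CPM in the other 8 libraries, with a log2 fold change of 3.71 ± 0.98 (SE; edgeR, adjusted p = 0.0725). Gm25150 was at 121 and 91.3 CPM against 0 to 15.6 CPM elsewhere (log2 fold change 4.55 ± 1.15, SE; edgeR, adjusted p = 0.0579), and Gm23763 at 177 and 146 CPM against 0 to 20.2 CPM (4.37 ± 1.23, SE; edgeR, adjusted p = 0.0901). Summed over its 8 rows, U7 stood at 558 and 441 CPM in the Eµ-deficient libraries, and the lower of these was 3.93 times the highest of the other 8. The unannotated row was at 12 and 6.44 CPM against 0 to 3.31 CPM, and with 89 of its 332 counts outside the Eµ-deficient libraries it is a member only through them.

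**Figure D4:**
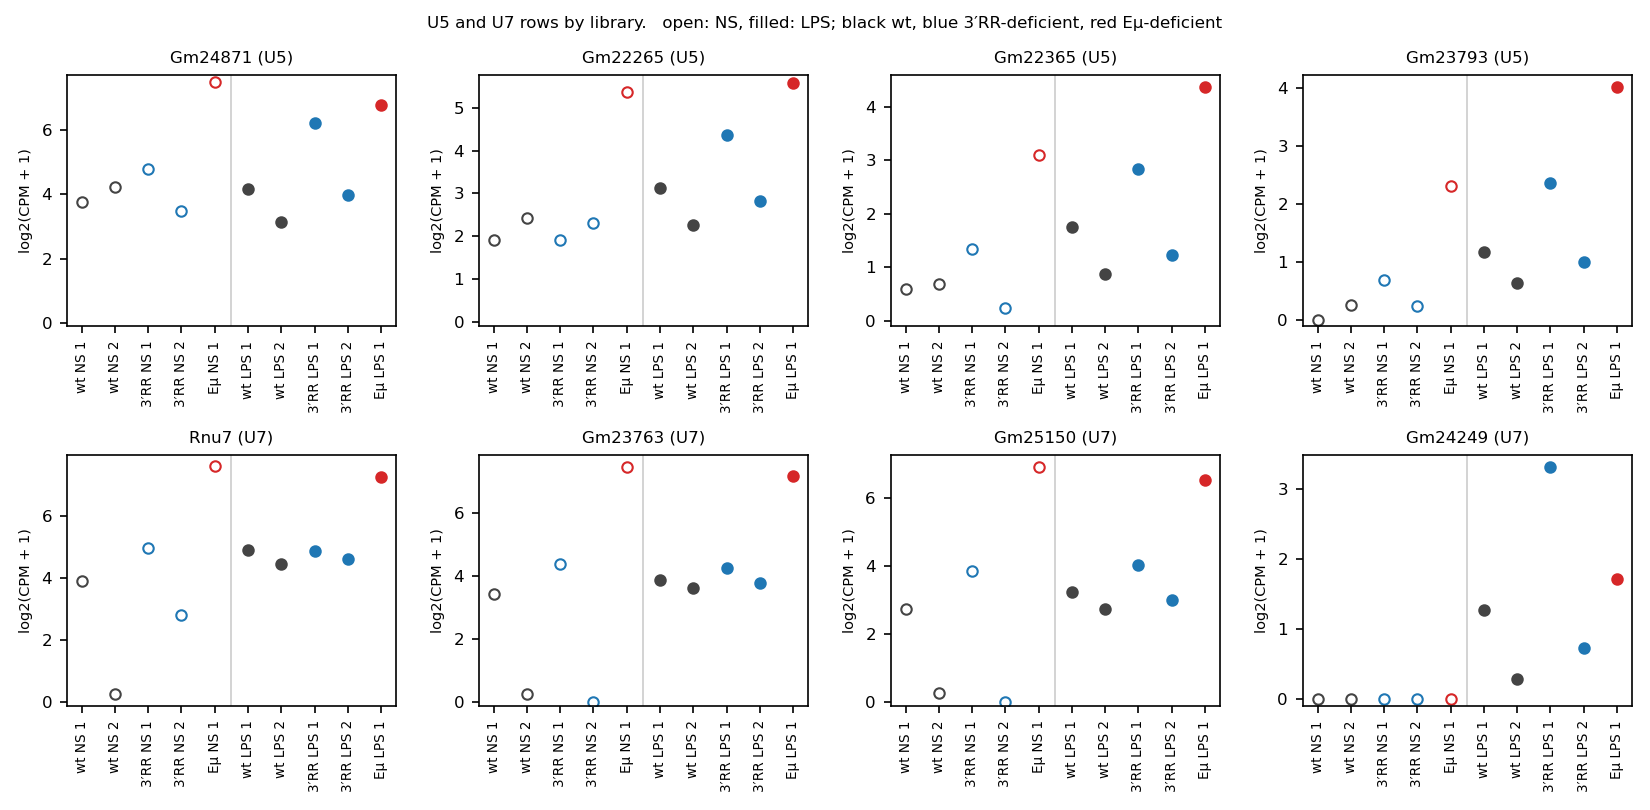
Log2(CPM + 1) of the 4 U5 rows called in Eµ-deficient cells and of 4 U7 rows in each library, with open points for NS and filled points for LPS (black wt, blue 3′RR-deficient, red Eµ-deficient). Both red points lie above all others for Gm24871, Gm22265, Gm22365, Rnu7, Gm23763 and Gm25150, and Gm24249 is at 0 in all 5 NS libraries.

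Among the 30 rows that reached the limit without them, both Eµ-deficient libraries lay above the other 8 in 9 rows, 4 U5, 4 U7 and 1 U11, where 6.68% of all rows tested did so. They lay below in 4 rows, all U2, where 2.44% of all rows did so. With library totals or microRNAs as the scale, 6 rows lay above, 2 of them U5 and 4 U7, where 4.90% and 5.86% of all rows did so. The U6 rows are members only through the Eµ-deficient libraries, so their signs show nothing, and none passed (smallest adjusted p = 0.280, edgeR). The summed U6 level of 126 CPM in Eµ-deficient NS lay within the 29.8 to 171 CPM of the other 8 libraries, whereas Eµ-deficient LPS was at 376 CPM. U1 and U2 had the opposite sign in 4 of 4 and 13 of 13 rows (medians -0.77 and -1.18), and none passed.

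Other classes of short RNA moved in the same libraries. Type snoRNA took 10.5% and 9.61% of the counts of Eµ-deficient NS and LPS against 3.00% to 8.57% in the other 8 libraries, and 43 of 322 tested snoRNA rows rose and 1 fell (edgeR), where 3.32% and 0.0878% of all rows did so. Of the tRNA rows 47 of 426 rose, and of the misc_RNA rows 12 of 95, and none of either fell. MicroRNAs took 60.2% and 51.4% of the counts of Eµ-deficient NS and LPS against 63.9% to 82.1% in the other 8 libraries. The Scarna genes, whose RNAs guide the modification of snRNAs, had 3 of 8 rows higher and none lower in Eµ-deficient cells (3.32% of all rows higher), 1 of 8 lower and none higher with LPS (2.13% of all rows lower), and none called for the 3′RR (edgeR). The row of 7SK, the snRNA that holds the elongation factor P-TEFb inactive, was not called in any comparison. Some markers of other cells were also higher: the erythroid microRNAs summed to 9240 CPM in Eµ-deficient NS and 1825 CPM in Eµ-deficient LPS, above the NS and LPS ranges of the other genotypes. In NS only miR-451a was itself above the other libraries, at 5268 against at most 3401 CPM. There miR-144-3p (71.5 CPM) and miR-486a-5p (3901 CPM) lay within the NS ranges, whose highest values were 109 and 3922 CPM. In LPS each of them lay above the other LPS libraries. The stromal ones were at 697 CPM in NS, within the range of the other NS libraries, and at 485 CPM in LPS, above the other LPS libraries. Most of that LPS sum was miR-143-3p (413 CPM), whereas the endothelial miR-126a-3p was at 7.02 CPM, below the 23.8 to 30.5 CPM of the other LPS libraries. The part of other cells in the U5 and U7 levels was not tested, and a difference between the mice and one between these 2 libraries and the rest cannot be told apart.

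The 4 calls depend on both Eµ-deficient libraries. Leaving out either one leaves 1 library of that genotype, so no count or p-value is given for those fits. Most or all of the 4 calls were then lost, and calls over all rows became fewer as well. The count of called rows was 2 without the first wt NS library, 7 without the second and 8 without the second 3′RR-deficient NS library. The share of all rows called moved too, to 2.10%, 3.70% and 3.83%, from 3.40% with all libraries. Gm24871 also lost its call without the first wt NS library, the first 3′RR-deficient NS library or either wt LPS library (edgeR, adjusted p = 0.0557 to 0.0879). Without the second NS libraries of wt and 3′RR-deficient cells, an alternative chosen after seeing the data, 27 rows were called higher, 13 of them among the 30 that reach the limit without the Eµ-deficient libraries (7 U7, 5 U5 and 1 U11), against 7.57% of all rows called in either direction, and for LPS against NS 2 rows were called lower of 84 tested, against 6.94%.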

How the data were processed

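Small RNA libraries of 10 pools were sequenced by the authors, and 1 table of read counts per feature was deposited. Per the submitters' processing notes, cutadapt 1.2.1, Bowtie2 and build mm10 were used. How reads matching several rows were counted is not given in the sources used here. Depth was 3482540 to 18144016 counts, and 1 count is worth 0.0447 to 0.201 CPM.

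Rows were matched by transcript identifier to GENCODE vM21 (133 of 135 coordinates agreed, 132 sequences), and families set by blastn 2.17.0 to named Rnu genes (E-value limit 1e-05). Counts were fitted over the whole table in R 4.3.3 with edgeR 4.0.16 (TMM, filterByExpr by group, quasi-likelihood test, Benjamini-Hochberg over all rows tested, threshold 0.05), in an additive model of genotype and stimulation, or 1 mean per group for single-condition and interaction tests. The 8 wt and 3′RR-deficient libraries entered all fits except that of Eµ, which used all 10. The study's methods name no test for these counts. Scripts were tested on simulated data. Alternatives were DESeq2 1.42.0, other scalings and filters, a replicate block and leaving out each library.

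Genes named were the Rnu genes, the 3 rows of highest mean CPM per family, the called rows of each comparison (up to 4 in each direction, or the 3 smallest p-values where none was called) and the rows at the limit of 100. Rows named outside this rule, to show possibly shared reads, sequence or a library that stands apart, were chosen after their values were seen. Members and lists were chosen with earlier results of these data known. Sequences of some rows are not reported here.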

Additional observations from a re-analysis of the deposited data

Results flagged for a closer look

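Gm24402, the U2 row that holds only the start of U2, was flagged because both wt LPS libraries (4.88 and 3.85 CPM) lay below both wt NS libraries (6.98 and 5.21 CPM), while both 3′RR-deficient LPS libraries (6.13 and 15.9 CPM) lay above their NS libraries (4.0 and 4.87 CPM). The difference of the responses was 1.73 on the log2 scale and did not pass the interaction test (edgeR, adjusted p = 1.00). The 2-library groups are too small for a test of single outlying libraries.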

How the results depend on the processing

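Main counts of called snRNA rows were 1 for LPS over both genotypes, 4 for Eµ and 0 elsewhere. For LPS over both genotypes, the count was 2 with microRNA scaling (12.6% of all rows), 11 with no filter on low counts (5 higher, 6 lower, 11% of all rows), 0 at a minimum of 10 CPM in 2 libraries (10 rows tested, 14.6% of all rows), 5 with DESeq2 (14.2%) and 2 with only the first NS libraries (chosen after seeing the data, 6.94%). Without 1 library it was 0 to 3 (0.565% to 6.49% of all rows). For Eµ it was 8 with microRNA scaling (3.25% of all rows), 15 with no filter (4.23%), 10 with DESeq2 (5.31%) and 27 with only the first NS libraries (7.57% of 4423 rows). Without 1 wt or 3′RR-deficient library it was 2 to 8 (2.10% to 3.83% of all rows). Without an Eµ-deficient library most or all of the 4 calls were lost. Applying the limit of 100 counts to the 8 other libraries (chosen after seeing the data) left 3 of the 4. In wt cells alone it was 3 with no filter (2.69%) and 1 with DESeq2 (3.09%), in 3′RR-deficient cells alone 2 with no filter (2.54%). The 3′RR and interaction counts were 0 under every alternative run. The cause of these changes was not tested. No called row changed direction. The median snRNA share was 0.275% of the counts outside microRNAs.

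Same-numbered libraries went together between genotypes within a culture condition but not between conditions, and nothing in the labels says that a number marks a shared batch, so the replicate numbers were not used as pairs. Their deviations correlated at 0.671 between wt NS and 3′RR-deficient NS, at 0.330 between wt LPS and 3′RR-deficient LPS, and at -0.207 to -0.018 between NS and LPS. With the replicate block, 2 rows were called for LPS (1 higher, 1 lower, against 7.37% of all rows). For Eµ 3 were called, Gm24871 no longer among them, against 2.96% of all rows. None was called for the interaction or, also with the block within each culture condition, for the 3′RR.

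The coefficient of variation between pools was 58.1% over all rows, with 2 pools per group and 1 for each Eµ-deficient group. A count of 0 allows up to 3 counts, and rows of near-identical sequence can hold shared reads.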
